A study of Homo sapiens with 9 samples.

Results

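The mitochondrial ribosomal protein genes were taken as every protein-coding gene whose symbol begins with MRPL or MRPS followed by a number, after the Ensembl identifiers of the count table had been matched to symbols. This gave 76 of the 57905 genes in the table, and all 76 were among the 13252 genes that passed the filter on low counts. The choice used symbols only and no measured value. MRPL45 and MRPS21 were not analysed here. RNA was sequenced from KYSE180, an established line of human esophageal squamous carcinoma, KDM6A-deficient per the series title. All 9 libraries came from cells exposed to 6 Gy of ionizing radiation, so no unirradiated cells enter any comparison here. The groups were shEZH2#1 and shEZH2#3, which carry different short hairpin RNAs against the histone methyltransferase EZH2, and shluc, which carries a control hairpin against luciferase (3 libraries each). A genotype label on the EZH2 libraries says knockout while the titles and the series title speak of hairpins and knockdown. No label says whether the transduced cells were a pool or a clone, or whether each library is a culture of its own. The p-values therefore reflect variation among these libraries alone, which may be technical.

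The mitochondrial ribosome makes the few proteins that mitochondrial DNA encodes, all of them subunits of the respiratory chain and ATP synthase. Its ribosomal RNAs come from mitochondrial DNA, but its proteins are encoded in the nucleus, made in the cytosol and imported. The large subunit (MRPL genes) forms peptide bonds and holds the exit tunnel; the small subunit (MRPS genes) binds the mRNA and checks codon against tRNA. Many of these proteins have bacterial counterparts, and others occur in mitochondria only.

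EZH2 itself measured 11.6, 11.4 and 7.28 normalized CPM in shEZH2#1, and 9.67, 11 and 9.11 in shEZH2#3, against 18.4, 20.1 and 19.5 in shluc. Normalized CPM are estimated counts per 1e+06 counts of the library (CPM) after scaling by edgeR's TMM factors. EZH2 fell in both hairpin groups, by 0.94 ± 0.18 with shEZH2#1 (log2 ± SE, adjusted p = 0.00163) and by 0.96 ± 0.18 with shEZH2#3 (adjusted p = 0.000433). Library totals ran between 14958011 and 21152006 estimated counts, at which 1 count is worth 0.0473 to 0.0669 CPM before scaling. Keratin 5 (KRT5), keratin 14 (KRT14), TP63 and SOX2, which mark squamous epithelium, stayed at or under 1.03 normalized CPM in all 9 libraries, and EPCAM between 0.608 and 4.19. The fibroblast-type markers COL1A1 (24.4 to 80.3) and DCN (10.5 to 29) were higher and COL1A2 and the leukocyte marker PTPRC were at 0, so the defining markers of the labelled cell type were close to absent. Under shEZH2#1 the log2 fold change was -0.84 for COL1A1 and 1.15 for DCN, and under shEZH2#3 it was 0.53 for COL1A1 and 0.71 for DCN; their part in the results was not tested. A further fibroblast-type marker, LUM, was not called with either hairpin (0.13 with shEZH2#1 and -0.48 with shEZH2#3, adjusted p = 0.818 and 0.239 by edgeR). EPCAM fell by 1.87 ± 0.36 with shEZH2#3 (adjusted p = 0.000461), and its log2 fold change with shEZH2#1 was -0.90 ± 0.34 (adjusted p = 0.0657); the part of this epithelial marker was likewise not tested. The shluc replicate 2 library stood apart from the other 2 control libraries in the summed level of the 76 genes, 3739.5 normalized CPM against 4961 and 5699.

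Transcript levels of the 76 genes spanned a 932-fold range per length, between 0.513 normalized CPM per kb (MRPL1) and 478 (MRPS24), with a median of 27.8. After MRPS24 came MRPL37 at 294 per kb, MRPL12 at 248 and MRPL28 at 241, as means over the 9 libraries. MRPL12 forms the flexible stalk to which translation factors bind. At the other end, MRPL50 stood at 0.696 per kb, MRPS31 at 0.898 and MRPL35 at 1.68, all as level per kb. The lowest member, MRPL1, belongs to the mobile stalk beside the exit site for tRNA. Not scaled for length, 11 members averaged under 5 normalized CPM and 20 over 100.

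**Figure D1:**
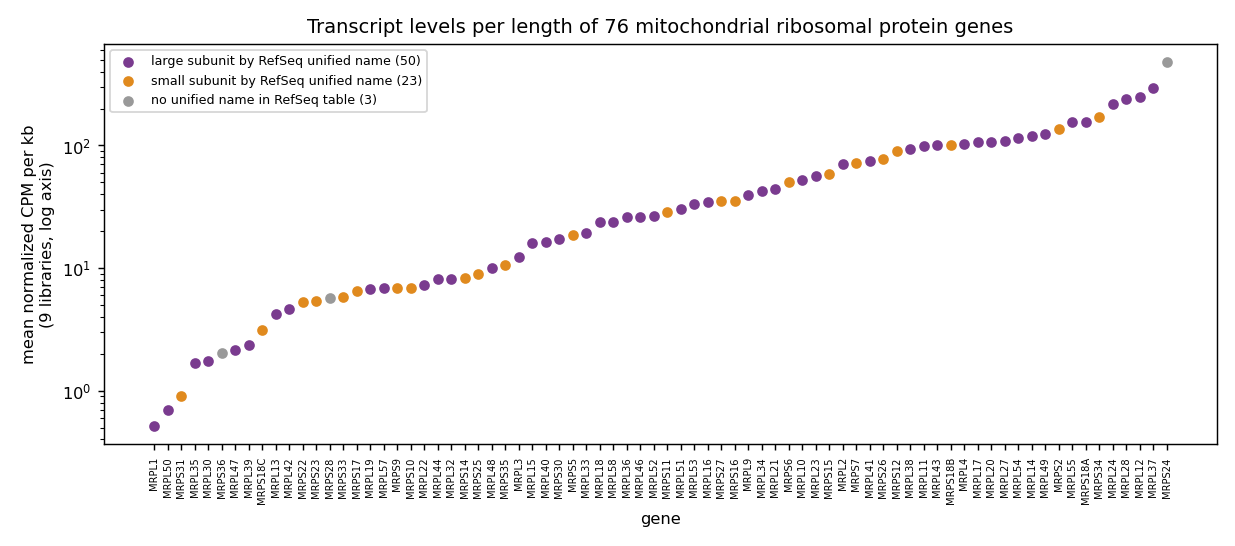
Mean level of each of the 76 genes over 9 libraries in normalized CPM per kb of transcript (vertical log axis), genes ordered by level and coloured by the subunit in the RefSeq unified protein name. The points run between 0.513 (MRPL1) and 478 (MRPS24), and MRPS24, which has no unified name, is followed by 4 large-subunit genes (MRPL37, MRPL12, MRPL28 and MRPL24). The highest gene with a unified name of the small subunit is MRPS34, at 169.6.

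Promoter sequences from RefSeq (GRCh38.p14), running 250 bases before to 50 after the start of the gene, were found for 67 of the 76 members. Where RefSeq lists several starts for a gene, the first listed was used. For MRPS22 that start lies inside the longer gene of the GENCODE 29 annotation, which begins upstream, so its sequence is the RefSeq window and the annotations differ on where the gene starts. They are shown for 4 members on which the comparisons turn: MRPL55, with the largest rise under shEZH2#1 (chr1:228109250-228109549, minus strand), MRPL27, with the largest difference between the hairpins (chr17:50373135-50373434, minus strand), MRPL42, lower with both hairpins (chr12:93467264-93467563, plus strand), and MRPS22, lower with shEZH2#3 (chr3:139343744-139344043, plus strand). Capitals mark matches to CCGGAAG, the core bound by ETS factors such as GABPA, on either strand.
MRPL55: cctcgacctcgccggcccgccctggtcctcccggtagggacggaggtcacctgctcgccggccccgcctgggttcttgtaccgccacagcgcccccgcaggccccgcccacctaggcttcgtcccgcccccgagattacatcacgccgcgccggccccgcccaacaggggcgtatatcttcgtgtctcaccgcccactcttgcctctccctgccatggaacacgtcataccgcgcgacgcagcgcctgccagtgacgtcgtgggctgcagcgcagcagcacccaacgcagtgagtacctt
MRPL27: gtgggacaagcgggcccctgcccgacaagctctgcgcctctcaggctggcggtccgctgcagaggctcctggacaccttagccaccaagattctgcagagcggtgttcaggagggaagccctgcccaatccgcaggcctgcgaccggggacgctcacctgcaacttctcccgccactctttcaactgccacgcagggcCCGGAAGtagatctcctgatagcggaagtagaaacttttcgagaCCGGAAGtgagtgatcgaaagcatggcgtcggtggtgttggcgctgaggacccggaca
MRPL42: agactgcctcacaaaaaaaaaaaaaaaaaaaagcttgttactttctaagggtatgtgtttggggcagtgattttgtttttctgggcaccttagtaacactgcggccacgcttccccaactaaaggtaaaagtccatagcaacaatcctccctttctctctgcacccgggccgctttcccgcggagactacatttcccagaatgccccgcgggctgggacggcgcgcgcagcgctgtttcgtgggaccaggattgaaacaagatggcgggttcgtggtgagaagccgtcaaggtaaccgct
MRPS22: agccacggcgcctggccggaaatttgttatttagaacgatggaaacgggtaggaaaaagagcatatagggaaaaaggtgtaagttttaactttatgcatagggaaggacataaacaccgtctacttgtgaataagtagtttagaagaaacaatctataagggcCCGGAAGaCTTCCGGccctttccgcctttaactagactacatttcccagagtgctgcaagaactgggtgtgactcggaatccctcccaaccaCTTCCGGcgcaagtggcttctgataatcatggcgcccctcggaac

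The ETS-type word CCGGAAG, searched on both strands, was present in 28 of the 67 members' promoters (41.8%), against 10.7% of the first listed promoters of 27305 genes, all of the same length. Those 27305 genes were not limited to protein-coding or tested genes, whereas all members are both. A set of like genes was not compared. Of the promoters printed, MRPL27 held 2 matches and MRPS22 held 3, while MRPL55 and MRPL42 held 0. Of those not printed, MRPL54 held 1, and MRPL39, which like MRPS22 was lower with shEZH2#3, held 0. The NRF1-type word GCGCNNGCGC was in 11.9% of the members' promoters and 8.78% of those of all genes. TATAAA was in 2.99% of the members' promoters and 12% of those of all genes. The searched words were counted separately, and none of them contains another.

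With shEZH2#1, 15 of the 76 genes rose and 3 fell against shluc. The 18 called members make 23.7% of the 76, where 19% of all 13252 genes tested were called in this comparison, 11.2% higher and 7.89% lower. Calls rest on edgeR's quasi-likelihood test, with p-values adjusted over all 13252 genes (Benjamini-Hochberg) and a threshold of 0.05. The median log2 fold change of the members was 0.08, and that of all genes -0.07. The members' fold changes ran between -0.82 and 0.96.

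MRPL55 (ENSG00000162910, chr1:228106679-228109312, minus strand, GRCh38), a large-subunit protein whose unified name is bL31m, showed the largest rise. It measured 132, 145 and 141 normalized CPM in shEZH2#1, against 73.1, 45.4 and 95.8 in shluc. All 3 shEZH2#1 libraries lay above all 3 controls, and the log2 fold change was 0.96 ± 0.20 (adjusted p = 0.00243). MRPL54, a large-subunit protein found only in mitochondria, measured 88.4, 94.6 and 104 in shEZH2#1, against 50.1, 35 and 66.9 in shluc. It rose by 0.92 ± 0.20 (adjusted p = 0.00431) with no overlap between the groups. MRPL28 measured 316, 341 and 356 in shEZH2#1, against 196, 137 and 236 in shluc, a rise of 0.83 ± 0.18 (adjusted p = 0.00323). MRPL27 (ENSG00000108826, chr17:50367857-50373214, minus strand), whose bacterial counterpart reaches toward the peptidyl transferase centre, measured 119, 99.4 and 111 in shEZH2#1, against 61, 42.9 and 89 in shluc. Its 2 groups were also separate, and the fold change was 0.77 ± 0.20 (adjusted p = 0.0123). MRPL14, the docking site of the assembly factor MALSU1, rose by 0.77 ± 0.21 (adjusted p = 0.0138). MRPL23, a protein at the rim of the exit tunnel, rose by 0.73 ± 0.19 (adjusted p = 0.00996). In each of these 6 genes shluc replicate 2 was the lowest library of the 9.

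The genes that fell with shEZH2#1 were MRPL42, MRPS18B and MRPS27. MRPL42 (ENSG00000198015, chr12:93467488-93516213, plus strand), a mitochondria-specific protein of the large subunit, measured 4.05, 3.26 and 3.09 normalized CPM in shEZH2#1, against 5.34, 6.74 and 6.32 in shluc. The groups did not overlap, and the log2 fold change was -0.82 ± 0.24 (adjusted p = 0.0229). MRPS18B measured 133, 123 and 131 in shEZH2#1, against 186, 164 and 202 in shluc, a fall of 0.51 ± 0.15 (adjusted p = 0.022). MRPS27, a pentatricopeptide-repeat protein that binds RNA, measured 89.9, 69 and 77.1 in shEZH2#1, against 117, 123 and 96.3 in shluc. All its shEZH2#1 libraries were below all controls, at -0.51 ± 0.17 (adjusted p = 0.0382).

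MRPL12, MRPL23, MRPL28, MRPL38, MRPL54, MRPL55 and MRPS26 were called in each of the 9 fits that left out 1 library. The number of calls fell to 7 (7 higher, 0 lower) without shEZH2#1 replicate 3, to 11 (11 higher, 0 lower) without shEZH2#1 replicate 2 and to 11 (9 higher, 2 lower) without shluc replicate 2. Over all genes the calls fell too, to 1159, 1344 and 1550 in the same fits, against 2523 with all 9 libraries. MRPL14 lost its call without shEZH2#1 replicate 3 (adjusted p = 0.0555), and MRPL27 without either of shEZH2#1 replicates 1 and 3 or shluc replicates 1 and 2 (adjusted p = 0.0527, 0.053, 0.0554 and 0.0761). MRPL42 lost it without either of shEZH2#1 replicates 2 and 3 or shluc replicate 2 (adjusted p = 0.0891, 0.0946 and 0.0794). MRPS18B lost it without either of shEZH2#1 replicates 2 and 3 or shluc replicates 1 and 3 (adjusted p = 0.108, 0.0822, 0.057 and 0.0526). MRPS27 lost it without either of shEZH2#1 replicates 2 and 3 or shluc replicates 1 and 2 (adjusted p = 0.184, 0.136, 0.104 and 0.0907).

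**Figure D2:**
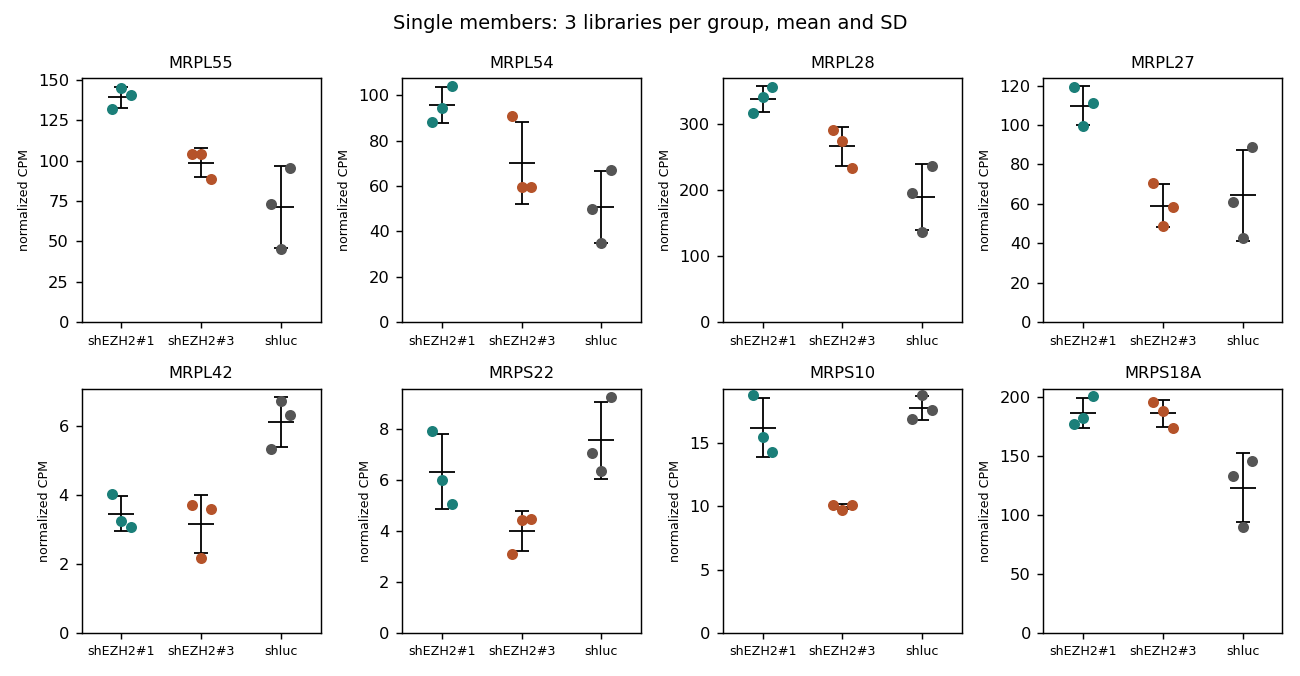
Normalized CPM of 8 of the genes in every library (points), with the mean and SD of the 3 libraries of each group (bars), for shEZH2#1, shEZH2#3 and shluc. MRPL55, MRPL54, MRPL28 and MRPL27 lie higher in shEZH2#1 than in shluc, MRPL42 lies lower in both hairpin groups, and MRPS22 and MRPS10 lie lower in shEZH2#3.

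With shEZH2#3, 12 of the 76 genes fell and 10 rose against the same 3 shluc libraries, which both comparisons share. The 22 called members make 28.9% of the 76, against 44.2% of all genes tested in this comparison (24.4% higher and 19.8% lower). Their median log2 fold change was -0.13, and that of all genes -0.01. The members' fold changes ran between -0.95 and 0.84, the upper end being MRPL30, which was not called and varied widely among libraries (5.79 ± 4.29 normalized CPM in shEZH2#3 and 3.19 ± 3.69 in shluc, SD, n = 3).

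MRPL42 again had the largest fall, with 3.72, 2.18 and 3.59 normalized CPM in shEZH2#3, against 5.34, 6.74 and 6.32 in shluc. Its log2 fold change was -0.95 ± 0.24 (adjusted p = 0.00425), with no overlap. MRPL39, another mitochondria-specific large-subunit protein, measured 2.12, 1.75 and 1.55 in shEZH2#3, against 3.69, 3.71 and 2.97 in shluc. It fell by 0.94 ± 0.27 (adjusted p = 0.00932), and the groups were apart. MRPS22 (ENSG00000175110, chr3:139005806-139357223, plus strand), a small-subunit protein whose mutations cause mitochondrial disease and whose printed promoter holds the most ETS-type words of the 4, measured 3.09, 4.43 and 4.47 in shEZH2#3, against 7.05, 6.34 and 9.25 in shluc. Its fall of 0.91 ± 0.23 (adjusted p = 0.0042) also came without overlap. MRPS10 (ENSG00000048544, chr6:42206801-42217865, minus strand) measured 10.1, 9.73 and 10.1 in shEZH2#3, against 16.9, 18.8 and 17.6 in shluc. The libraries of each group lay close together, and MRPS10 had the smallest adjusted p of the members named for this comparison (-0.84 ± 0.16, adjusted p = 0.000525). MRPL15, a large-subunit protein of universal type, fell by 0.84 ± 0.25 (adjusted p = 0.0105), and MRPS35, a small-subunit protein, by 0.81 ± 0.17 (adjusted p = 0.00094).

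The 6 largest rises with shEZH2#3 were smaller. MRPL2, a core protein near the site of peptide bond formation, measured 169, 132 and 111 normalized CPM in shEZH2#3, against 92.9, 67.6 and 100.1 in shluc. The groups did not overlap, and the log2 fold change was 0.66 ± 0.18 (adjusted p = 0.00587). MRPS18A measured 196, 188 and 174 in shEZH2#3, against 133, 89.8 and 146 in shluc, a rise of 0.60 ± 0.17 (adjusted p = 0.008). MRPS2 averaged 236 ± 13.7 in shEZH2#3, against 161 ± 21.7 in shluc (SD, n = 3), at 0.56 ± 0.15 (adjusted p = 0.0058). In both genes every shEZH2#3 library was above every control. MRPL38 rose by 0.55 ± 0.16 (adjusted p = 0.0106), MRPL41 by 0.51 ± 0.19 (adjusted p = 0.0401) and MRPL10, which anchors the MRPL12 stalk, by 0.50 ± 0.15 (adjusted p = 0.0136).

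The split of the calls with shEZH2#3 moved with each control library that was left out. Without shluc replicate 3 it was 16 higher and 9 lower (3218 and 2605 over all genes). It was 5 and 12 without shluc replicate 1 (3044 and 2381) and 5 and 13 without shluc replicate 2 (2479 and 1772). Leaving out hairpin libraries moved the split too, to 6 and 14 without shEZH2#3 replicate 1 and to 6 and 12 without shEZH2#1 replicate 2. Of the 22 calls with shEZH2#3, 12 were made in each fit that left out 1 library, among them MRPL42, MRPL39, MRPS22, MRPS10, MRPS35, MRPL2, MRPL38, MRPS18A and MRPS2. MRPL15 lost its call without shluc replicate 3 (adjusted p = 0.0987), and MRPL10 without shluc replicate 2 (adjusted p = 0.0507). MRPL41 lost it without any of 7 libraries, namely the 3 of shEZH2#1, shEZH2#3 replicates 2 and 3 and shluc replicates 1 and 2 (adjusted p = 0.0552, 0.0552, 0.0573, 0.0818, 0.0646, 0.077 and 0.179). Under upper quartile scaling the members' calls split into 5 higher and 23 lower, a scaling that also moved the median of all genes to -0.18 and their calls to 2421 higher and 3720 lower.

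**Figure D3:**
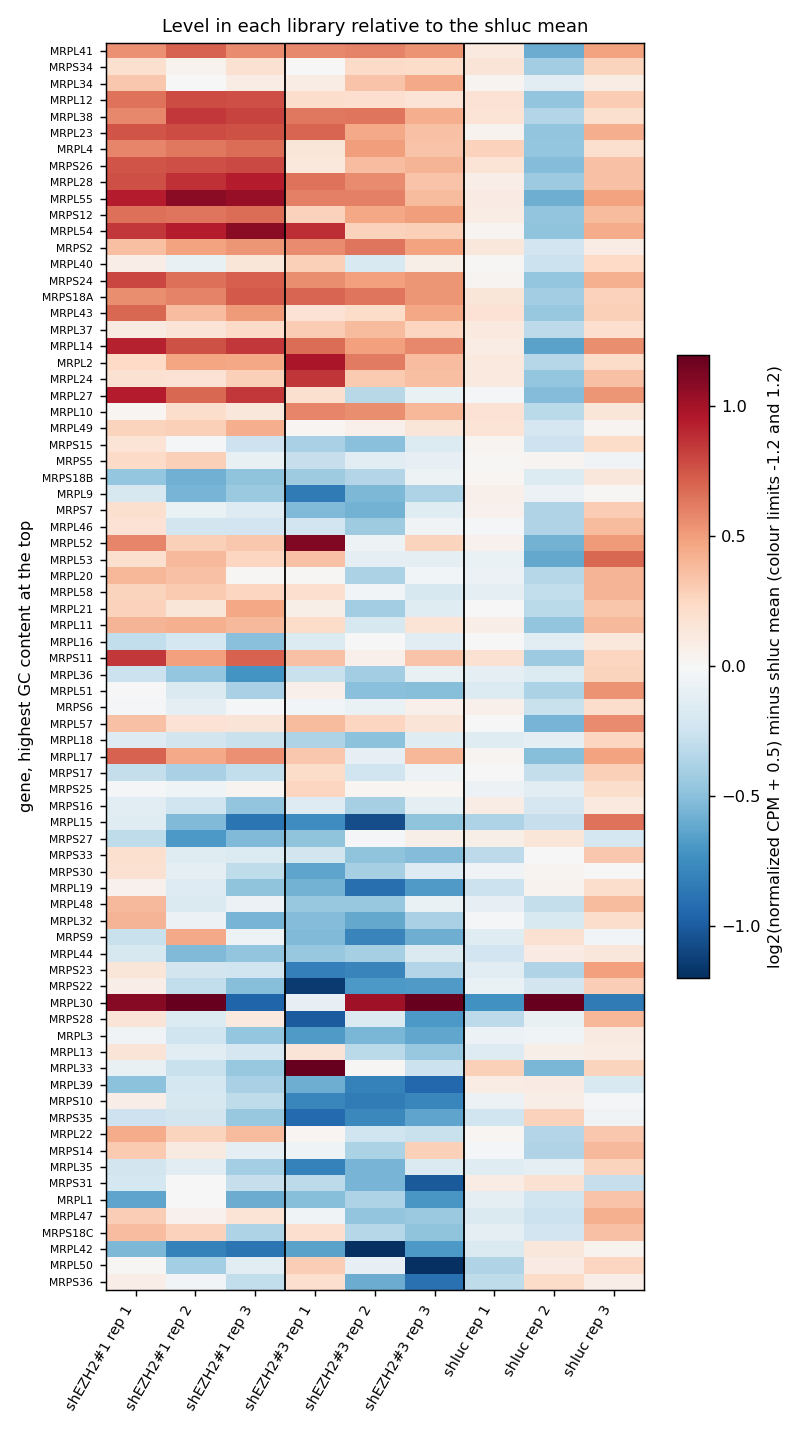
Each of the 76 genes (down the page, highest GC content at the top) in each of the 9 libraries, as log2(normalized CPM + 0.5) minus the shluc mean of the gene. The upper genes are mostly red in both hairpin groups, the lower genes are mostly blue in shEZH2#3, and shluc replicate 2 is blue for most of the upper genes.

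Set directly against each other, the hairpins differed in 7 of the 76 genes, all higher with shEZH2#1. This is 9.21% of the members, where 25% of all genes were called between the hairpins (9.46% higher and 15.5% lower). No member was called lower by edgeR; 3 were lower at an unadjusted p under 0.05, and DESeq2 and limma-voom called 0. The median log2 difference of the members was 0.26, against 0.01 for all genes. MRPL27 had the largest difference, with 119, 99.4 and 111 normalized CPM in shEZH2#1, against 70.4, 48.7 and 58.2 in shEZH2#3 (0.89 ± 0.21, adjusted p = 0.00349). The 2 hairpin groups were fully apart for MRPL27. MRPS9, whose bacterial counterpart reaches with its tail to the tRNA in the peptidyl site, measured 9.56, 16 and 11.1 in shEZH2#1, against 7.84, 6.48 and 7.57 in shEZH2#3 (0.74 ± 0.20, adjusted p = 0.0107). MRPS10 measured 18.8, 15.5 and 14.3 in shEZH2#1, against 10.1, 9.73 and 10.1 in shEZH2#3 (0.70 ± 0.16, adjusted p = 0.0037). Both genes were higher in each shEZH2#1 library than in any shEZH2#3 library. MRPS22 differed by 0.67 ± 0.24 (adjusted p = 0.0454), MRPL12 by 0.54 ± 0.17 (adjusted p = 0.0279), MRPL22, which lines the exit tunnel, by 0.53 ± 0.17 (adjusted p = 0.0315) and MRPS35 by 0.49 ± 0.17 (adjusted p = 0.0428). MRPL27 and MRPS10 were called in each fit that lacked 1 library. The number of calls was 2 without shEZH2#1 replicate 2, 4 without shEZH2#1 replicate 1, 13 without shluc replicate 3 and 14 without shluc replicate 2. Over all genes the same fits gave 2246, 1956, 3522 and 3941 calls, against 3311 with all 9 libraries. MRPS9 lost its call without shEZH2#1 replicate 2 (adjusted p = 0.109), and MRPL12 without any of replicates 2 and 3 of either hairpin (adjusted p = 0.0693 to 0.0932). MRPL22 lost it without any of the 3 shEZH2#1 libraries or shEZH2#3 replicates 2 and 3 (adjusted p = 0.056 to 0.105), and MRPS22 without any of shEZH2#1 replicates 1 and 2, the 3 shEZH2#3 libraries or shluc replicate 1 (adjusted p = 0.055 to 0.224).

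The fold changes of the members were ordered by the GC content of their transcripts. Among the 19 members with the highest GC content (median 61.7%), 13 rose and 0 fell with shEZH2#1 (0 lower also at an unadjusted p under 0.05, and by DESeq2), and the median log2 fold change was 0.62. Among the 19 with the lowest GC content (median 40.4%), 0 rose and 1 fell with shEZH2#1 (0 higher also at an unadjusted p under 0.05, and by DESeq2), with a median of -0.22. With shEZH2#3 the 19 highest held 7 genes that rose and 0 that fell, at a median of 0.47. The 19 lowest held 0 that rose and 7 that fell, at a median of -0.54 (for both zeros, 0 also at an unadjusted p under 0.05, and by DESeq2). Across the 76 genes, which share the same libraries, Spearman's rho between GC content and fold change was 0.64 with shEZH2#1 and 0.72 with shEZH2#3. Across 12949 tested genes it was 0.47 with shEZH2#1 and 0.69 with shEZH2#3.

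**Figure D4:**
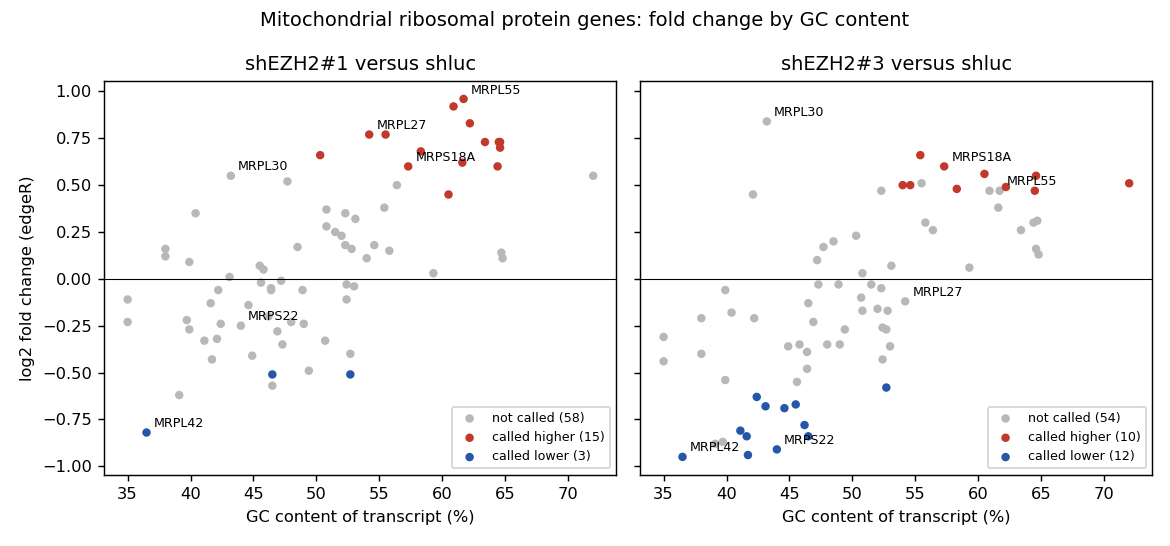
Log2 fold change against shluc (vertical axis) and GC content of the transcript in percent (horizontal axis) of the 76 genes, for shEZH2#1 on the left and shEZH2#3 on the right, coloured by call. Spearman's rho is 0.64 for shEZH2#1 and 0.72 for shEZH2#3, and MRPL42 and MRPL55 lie near the lower left and upper right.

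The libraries themselves differed in this trend: over all genes, Spearman's rho between GC content and level relative to the mean of the 9 libraries was -0.24 to 0.26 in shEZH2#1 and 0.39 to 0.65 in shEZH2#3, against -0.69 to -0.40 in shluc. The 3 groups did not overlap in it, so the GC trend and the hairpins cannot be told apart. When a smooth of GC content and transcript length was taken out of each library, the members' calls became 11 higher and 5 lower with shEZH2#1, 1 higher and 17 lower with shEZH2#3, and 22 higher and 2 lower between the hairpins. Over all 13252 genes tested the corrected calls were 1131 higher and 1295 lower with shEZH2#1, 1709 and 1518 with shEZH2#3, and 1767 and 2003 between the hairpins. Trends remained among the members after this correction. Their Spearman's rho with GC content was 0.16 with shEZH2#1, -0.30 with shEZH2#3 and 0.45 between the hairpins. Over 12949 tested genes it was -0.06, 0.00 and -0.04. The members' rho with transcript length was then 0.16, 0.51 and -0.35, so their corrected calls are not free of these trends. In the 19 members with the highest GC content the corrected calls with shEZH2#3 were 0 higher (0 at an unadjusted p under 0.05) and 8 lower, with a median log2 fold change of -0.25. Of the first set of calls, 10 of 18 were made again with shEZH2#1, 4 of 22 with shEZH2#3 and 3 of 7 between the hairpins. MRPL55, MRPL54, MRPL28, MRPL27, MRPL14, MRPL42 and MRPS18B were among the 10 with shEZH2#1. The corrected log2 fold change was 0.43 for MRPL55 (adjusted p = 0.0104), 0.62 for MRPL27 (adjusted p = 0.00419) and -0.74 for MRPL42 (adjusted p = 0.0121). MRPL23 (0.10, adjusted p = 0.514), MRPL12 (0.13, adjusted p = 0.25) and MRPS27 (-0.26, adjusted p = 0.172) were not called after correction.

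With shEZH2#3 the corrected calls in common with the uncorrected ones were MRPL42 (-0.53, adjusted p = 0.0485), MRPL19 (-0.50, adjusted p = 0.0276), MRPL9 (-0.70, adjusted p = 0.00149) and MRPL10 (0.33, adjusted p = 0.0303). MRPL39 (-0.48, adjusted p = 0.18), MRPS22 (-0.50, adjusted p = 0.0931), MRPL15 (-0.54, adjusted p = 0.0776), MRPS10 (-0.27, adjusted p = 0.0898) and MRPS35 (-0.23, adjusted p = 0.193) kept a negative sign without a call. MRPL2 (0.38, adjusted p = 0.0537) and MRPS18A (0.13, adjusted p = 0.277) kept a positive one. MRPL38 (-0.08), MRPS2 (-0.02) and MRPL41 (-0.25) changed sign, with no call. MRPL23, picked out here after its values were seen, was called higher without the correction (0.47 ± 0.19, adjusted p = 0.0466) and lower with it (-0.43, adjusted p = 0.00497). Between the hairpins MRPL27 (1.14, adjusted p = 2.46e-05), MRPL12 (0.70, adjusted p = 1.77e-05) and MRPS10 (0.36, adjusted p = 0.0283) were called after correction. MRPS9 (0.52, adjusted p = 0.0564), MRPS22 (0.34, adjusted p = 0.26), MRPL22 (0.24, adjusted p = 0.409) and MRPS35 (0.12, adjusted p = 0.519) were not.

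The ETS-type word was in 7 of 14 promoters of the genes that rose with shEZH2#1 and in 4 of 10 of those that fell with shEZH2#3. It was also in 3 of 7 promoters of the genes that rose with shEZH2#3 and in 0 of 3 of those that fell with shEZH2#1, against 41.8% over the 67. Median promoter GC content was 64.7% in the same 14 genes and 55.3% in the same 10, against 60.3% over the 67.

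The 2 subunits can be read from the unified protein names that RefSeq gives for 73 of the 76 genes, which place 50 in the large and 23 in the small subunit. MRPS24, MRPS28 and MRPS36 had no such name and are left out of the counts by subunit and by class. They are members by symbol, and whether each is part of the ribosome was not tested. MRPS24 was called higher with shEZH2#1 (0.68, adjusted p = 0.0124) and shEZH2#3 (0.48, adjusted p = 0.0376). MRPS28 was called lower with shEZH2#3 (-0.68, adjusted p = 0.0413). After GC correction these calls were absent (adjusted p = 0.0713 and 0.304 for MRPS24, and 0.503 for MRPS28). With shEZH2#1, 10 large-subunit genes rose and 1 fell (median log2 fold change 0.16), while 4 small-subunit genes rose and 2 fell (median -0.04). With shEZH2#3, 8 large-subunit genes rose and 6 fell (median -0.04), while 1 small-subunit gene rose and 5 fell (median -0.21). Median GC content was 51.1% in the large-subunit and 47.2% in the small-subunit genes. After GC correction the large-subunit calls were 10 higher and 3 lower with shEZH2#1 (median 0.09) and 1 higher and 12 lower with shEZH2#3 (median -0.14). The small-subunit calls were then 1 higher and 2 lower with shEZH2#1 (median -0.02), and 0 higher (2 at an unadjusted p under 0.05) and 5 lower with shEZH2#3 (median -0.24). No test of a difference between the subunits was made. By evolutionary class, 26 members have a counterpart in all ribosomes, 17 in bacterial ones and 30 are mitochondria-specific, and genes of each class rose and fell with shEZH2#3 (5 and 4, 1 and 2, 3 and 5). After GC correction these counts were 1 and 4, 0 and 7, and 0 and 6, with 2 and 1 higher at an unadjusted p under 0.05 in the bacterial and the mitochondria-specific class.

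Members at the functional centres of the ribosome gave calls in both directions. MRPS12, a small-subunit protein at the decoding centre, measured 129.6, 128 and 131 normalized CPM in shEZH2#1, and 99.7, 113 and 116 in shEZH2#3, against 87.4, 59 and 107 in shluc. It rose with shEZH2#1 (0.62 ± 0.18, adjusted p = 0.019), a call absent without either of shEZH2#1 replicates 2 and 3 or shluc replicates 1 and 2 (adjusted p = 0.0629, 0.0737, 0.0504 and 0.066) and after GC correction (0.17, adjusted p = 0.257). With shEZH2#3 MRPS12 was at 0.38 ± 0.18 (adjusted p = 0.0851). MRPL12 measured 313, 343 and 340.3 in shEZH2#1, and 231, 229.8 and 224 in shEZH2#3, against 225, 143 and 246 in shluc. It rose with shEZH2#1 (0.70 ± 0.17, adjusted p = 0.00865), and was at 0.16 ± 0.17 with shEZH2#3 (adjusted p = 0.466), where the GC-corrected value was -0.56 (adjusted p = 0.000173).

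MRPL3, near the peptidyl transferase centre, measured 24.8, 21.6 and 18.4 normalized CPM in shEZH2#1, and 15.7, 17.3 and 16.4 in shEZH2#3, against 24.3, 24.8 and 27.6 in shluc. It fell with shEZH2#3 (-0.63 ± 0.16, adjusted p = 0.00343), a call absent after GC correction (-0.10, adjusted p = 0.555), and was at -0.24 ± 0.16 with shEZH2#1 (adjusted p = 0.289). MRPS7, which binds the small ribosomal RNA in the head of the subunit, measured 125, 103 and 98.1 in shEZH2#1, and 75.6, 73.5 and 98.4 in shEZH2#3, against 113, 85.1 and 135 in shluc. Neither comparison called it (-0.03 ± 0.18, adjusted p = 0.925 with shEZH2#1, and -0.43 ± 0.18, adjusted p = 0.0543 with shEZH2#3). MRPS7 was called lower with shEZH2#3 after GC correction (-0.51, adjusted p = 0.0131), under upper quartile scaling and without either of shEZH2#1 replicate 1, shEZH2#3 replicate 3 or shluc replicate 2 (-0.45, -0.58 and -0.60). MRPL58, the peptidyl-tRNA hydrolase that frees stalled chains, was at 23.8 ± 0.608 normalized CPM in shEZH2#1 and 19.6 ± 2.74 in shEZH2#3, against 20 ± 5.43 in shluc (SD, n = 3). Its fold changes were 0.25 ± 0.18 with shEZH2#1 (adjusted p = 0.345, but 0.0469 without shluc replicate 3) and -0.03 ± 0.18 with shEZH2#3 (adjusted p = 0.908).

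The 3 MRPS18 paralogs derive from 1 bacterial protein and sit at different places. MRPS18A has a unified name of the large subunit (mL66), and MRPS18B (mS40) and MRPS18C (bS18m) have names of the small subunit. MRPS18A measured 177, 182 and 201 normalized CPM in shEZH2#1, and 196, 188 and 174 in shEZH2#3, against 133, 89.8 and 146 in shluc. It rose by 0.60 ± 0.17 with shEZH2#1 (adjusted p = 0.0168), but not without either of shEZH2#1 replicates 2 and 3 or shluc replicate 2 (adjusted p = 0.0554, 0.0886 and 0.0583). MRPS18B, lower with shEZH2#1, measured 136, 144 and 176 in shEZH2#3 (-0.27 ± 0.15, adjusted p = 0.139). After GC correction MRPS18B was called lower with shEZH2#3 as well (-0.38, adjusted p = 0.00966), as it was under upper quartile scaling (adjusted p = 0.0113). MRPS18C, the least abundant, measured 6.84, 6.4 and 3.9 in shEZH2#1, and 6.06, 3.99 and 3.58 in shEZH2#3, against 4.74, 4.35 and 6.75 in shluc. Its groups overlapped, and it was called in neither comparison (0.12 ± 0.26, adjusted p = 0.782 with shEZH2#1, and -0.21 ± 0.26, adjusted p = 0.523 with shEZH2#3).

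Genes of other lists around mitochondrial translation were called in both directions, as were genes over the whole table. For these lists and those that follow, the share over all genes tested was 11.2% higher and 7.89% lower with shEZH2#1. With shEZH2#3 it was 24.4% higher and 19.8% lower. No list was tested against these shares. Medians given with the lists are of the log2 fold change of the list, against -0.07 over all genes with shEZH2#1 and -0.01 with shEZH2#3. Of 5 further mitoribosomal proteins whose symbols lack the MRP prefix, 2 rose and 0 fell with shEZH2#1 (edgeR, median 0.13; 0 lower also at an unadjusted p under 0.05, and by DESeq2). These were GADD45GIP1, at 495 ± 7.93 normalized CPM in shEZH2#1, against 253 ± 86 in shluc (0.97 ± 0.21, adjusted p = 0.00344), and AURKAIP1 (0.71 ± 0.18, adjusted p = 0.00888; 0.07, adjusted p = 0.644 after GC correction). With shEZH2#3 (median -0.07), 0 rose (0 at an unadjusted p under 0.05, and by DESeq2) and PTCD3 fell (-0.52 ± 0.18, adjusted p = 0.0235; 0.07, adjusted p = 0.77 after GC correction). Of 16 translation factors, 1 rose and 1 fell with shEZH2#1 (median -0.13), and 2 rose and 3 fell with shEZH2#3 (median -0.31). After GC correction 1 was higher and 0 lower under shEZH2#1 (median 0.02; 0 lower at an unadjusted p under 0.05), and 2 were higher and 1 lower under shEZH2#3, where the median turned to 0.13. The elongation factor TUFM rose with shEZH2#3 (913 ± 51.5 normalized CPM in shEZH2#3, against 537 ± 98.6 in shluc, 0.77 ± 0.16, adjusted p = 0.0011). The initiation factor MTIF2 fell (-0.97 ± 0.22, adjusted p = 0.00177), as did the elongation factor GFM1 (-0.84 ± 0.16, adjusted p = 0.000392), though neither was called after GC correction (adjusted p = 0.124 and 0.186).

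Of 25 genes for mitoribosome assembly and rRNA modification, 2 rose and 1 fell with shEZH2#1 (median 0.01), and 5 rose and 3 fell with shEZH2#3 (median -0.04). After GC correction the assembly genes gave 1 higher and 2 lower under shEZH2#1 (median -0.02), and 2 and 4 under shEZH2#3 (median 0.02), so both medians turned sign. FASTKD2, an RNA-binding protein needed for the large ribosomal RNA, had 1.6 ± 0.11 normalized CPM in shEZH2#3, against 4.88 ± 0.661 in shluc (-1.60 ± 0.25, adjusted p = 9.48e-05), and was called after GC correction too (-1.01, adjusted p = 0.00238). MALSU1, the partner of MRPL14, fell with shEZH2#1 (-0.58 ± 0.16, adjusted p = 0.0158), but not after GC correction (adjusted p = 0.236). Of 20 mitochondrial aminoacyl-tRNA synthetase genes, 2 rose and 3 fell with shEZH2#1 (median -0.18), and 5 rose and 3 fell with shEZH2#3 (median -0.30). After GC correction the synthetase genes gave 1 higher and 1 lower under shEZH2#1 (median -0.08), and 1 higher and 0 lower under shEZH2#3 (median -0.05; 4 lower at an unadjusted p under 0.05). VARS2, the valine enzyme, rose in both (0.63 ± 0.14 with shEZH2#1 at an adjusted p of 0.00432, and 0.91 ± 0.14 with shEZH2#3 at an adjusted p of 9.66e-05). Of 13 genes for mitochondrial DNA transcription and replication, 2 rose and 1 fell with shEZH2#1 (median -0.25), and 1 rose and 5 fell with shEZH2#3 (median -0.51). After GC correction 1 was higher and 1 lower under shEZH2#1 (median -0.15), and no gene of the list was called under shEZH2#3 (median -0.17; 1 higher and 3 lower at an unadjusted p under 0.05). The RNA polymerase POLRMT rose with shEZH2#3 (0.78 ± 0.18, adjusted p = 0.00258) and the transcription factor TFAM fell (-0.93 ± 0.25, adjusted p = 0.00534), and neither was called after GC correction (adjusted p = 0.382 and 0.301).

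Of 9 regulators of nuclear genes for mitochondria, 1 rose and 0 fell with shEZH2#1 (edgeR, median -0.28; 2 lower at an unadjusted p under 0.05, 0 by DESeq2), and 2 rose and 3 fell with shEZH2#3 (median 0.20). After GC correction the regulators gave 0 higher and 1 lower under shEZH2#1 (median -0.06; 0 higher at an unadjusted p under 0.05), and 1 and 1 under shEZH2#3 (median 0.09). ESRRA, a nuclear receptor, rose with both hairpins, by 0.59 ± 0.15 under shEZH2#1 (adjusted p = 0.00915) and by 0.73 ± 0.15 under shEZH2#3 (adjusted p = 0.000835). It was not called after GC correction (0.16 and 0.10, adjusted p = 0.18 and 0.38). GABPB1, the partner of the ETS factor GABPA, had 3.92 ± 0.752 normalized CPM in shEZH2#3, against 10 ± 1.4 in shluc (-1.36 ± 0.22, adjusted p = 0.000122), also called after GC correction (-0.74, adjusted p = 0.0266). GABPA fell (-1.03 ± 0.31, adjusted p = 0.0116), but was not called after GC correction (adjusted p = 0.249). Of 11 genes of the mitochondrial unfolded protein response, 2 rose and 2 fell with shEZH2#1 (median -0.30), and 4 rose and 3 fell with shEZH2#3 (median 0.30). After GC correction they gave 0 higher and 2 lower under shEZH2#1 (median -0.18; 1 higher at an unadjusted p under 0.05), and 1 and 4 under shEZH2#3, where the median turned to -0.14. TRIB3, a pseudokinase induced by cell stress, rose with shEZH2#3 (1.08 ± 0.16, adjusted p = 5.22e-05), also after GC correction (0.53, adjusted p = 0.000935). ASNS, of the same list, fell with shEZH2#3 (-1.03 ± 0.18, adjusted p = 0.000228), also after GC correction (-0.64, adjusted p = 0.00632). The mitochondrial chaperone HSPA9 fell with shEZH2#3 (-0.94 ± 0.14, adjusted p = 7.53e-05; -0.48, adjusted p = 0.000884 after GC correction). For the cytosolic ribosome, 9 of 84 ribosomal protein genes rose and 1 fell with shEZH2#1 (median 0.01), and 37 rose and 2 fell with shEZH2#3 (median 0.50). After GC correction these counts were 6 and 6 under shEZH2#1 (median -0.01) and 26 and 1 under shEZH2#3 (median 0.28). Without correction DESeq2 called 26 higher and 2 lower with shEZH2#3. RPL37A, with the largest rise called by edgeR there (1.55 ± 0.39), varied widely among libraries (688 ± 596 normalized CPM in shEZH2#3, SD, n = 3).

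The 13 mRNAs encoded by mitochondrial DNA, which the mitochondrial ribosome translates, moved in opposite directions with the 2 hairpins. With shEZH2#1, 0 rose and 9 fell (median -0.85; 0 higher also at an unadjusted p under 0.05, and by DESeq2). With shEZH2#3, 13 rose and 0 fell (median 1.42; DESeq2 called 12; 0 lower at an unadjusted p under 0.05). Between the hairpins, 13 were lower with shEZH2#1 by edgeR. Their summed level was 15942 ± 819 normalized CPM in shEZH2#1 and 69886 ± 16134 in shEZH2#3, against 29509.8 ± 1369 in shluc (SD, n = 3). Replicate 1 of shEZH2#3 stood apart at 88388, against 62524 and 58746 in replicates 2 and 3. MT-CO1, a cytochrome oxidase subunit, fell by 0.93 ± 0.16 with shEZH2#1 (log2, adjusted p = 0.000572) and rose by 0.97 ± 0.16 with shEZH2#3 (adjusted p = 0.000122). In bulk RNA, fewer cells with a transcript and less of it per cell cannot be told apart.

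The 76 mitochondrial ribosomal protein genes summed to 6070.4 ± 83.6 normalized CPM in shEZH2#1 and 5463 ± 159 in shEZH2#3, against 4799.8 ± 989.6 in shluc (SD, n = 3). The shEZH2#1 libraries (5976 to 6135) lay above all others, and shEZH2#3 (5309.9 to 5627) lay within the span of shluc (3739.5 to 5699). As plain CPM of the library total, the same sums were 5945 ± 458 in shEZH2#1 and 4711 ± 116 in shEZH2#3, against 5628 ± 731 in shluc, so the order of shEZH2#3 and shluc turned with the scaling. On that scale the shEZH2#1 libraries (5549 to 6446) overlapped those of shluc (4956 to 6407), and so did not stand above all others. Identifiers without a symbol enter plain CPM, and 2 of them held 15.81 to 22.58% of the counts in shEZH2#1 and 5.97 to 11.59% in shEZH2#3, against 6.96 to 9.28% in shluc.

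**Figure D5:**
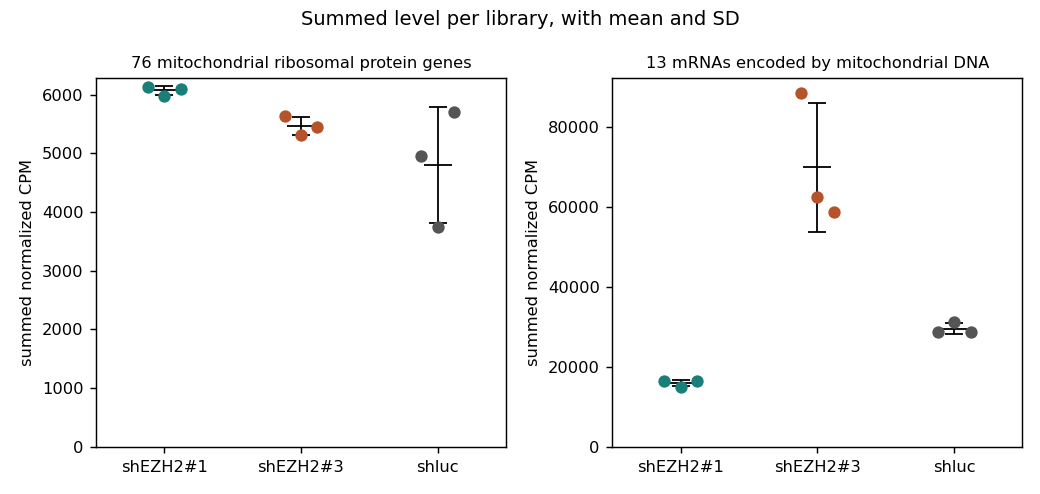
Summed normalized CPM per library (points), with mean and SD per group (bars), for the 76 mitochondrial ribosomal protein genes on the left and the 13 mRNAs of mitochondrial DNA on the right. The left sums average 6070.4 in shEZH2#1 and 5463 in shEZH2#3, against 4799.8 in shluc, and the right sums average 15942 in shEZH2#1 and 69886 in shEZH2#3, against 29509.8 in shluc.

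Reads of some members could be shared with other loci, and the treatment of such reads is not given in the sources used here. Pseudogenes matching the same names number 65, for 32 of the members. Among the genes named above, MRPL42, MRPL35 and MRPS31 have 4 such copies each and MRPL50 has 3. MRPL35, MRPS31 and MRPL50 are also among the 4 lowest members per kb. MRPS10, MRPS35, MRPS18B and MRPS18C have 2 copies each. Another gene overlaps exons on the same strand for 16 members and on the opposite strand for 29. MRPS22 overlaps COPB2 on the opposite strand, MRPS12 overlaps SARS2, MRPL23 overlaps the antisense RNA MRPL23-AS1, and MRPS24 shares its strand with the read-through gene URGCP-MRPS24. The counting strand is not given, so values of these genes are uncertain. Of the 44 members with no pseudogene copy, 13 rose and 1 fell with shEZH2#1. For shEZH2#3 the counts were 8 and 6. These 44 had a higher median GC content (51.9%) than the members with copies (47.1%). After GC correction their calls were 7 higher and 2 lower under shEZH2#1. Under shEZH2#3 the corrected calls were 1 higher and 11 lower. The part of shared reads in the calls was not tested.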

How the data were processed

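Polyadenylated RNA was selected and made into stranded libraries, per the labels' protocols. Per the submitters' processing notes, tools were fastp, HISAT2 and StringTie, on GRCh38 (hg38). How reads were counted, by strand or when shared between loci, is not given in the sources used here. Estimated counts were deposited by the authors per Ensembl gene, not normalized, of which 14.7 to 18.5% of nonzero ones carry decimals. These were rounded to integers here.

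Identifiers were matched to symbols through a naming table (51996) and GENCODE 29 (342); 5567 had none. GC content and length came from 1 principal GENCODE 29 transcript per gene and covered 97.7% of tested genes. Counts were tested with edgeR 4.0.16 in R 4.3.3: TMM scaling, filterByExpr (13252 genes kept), and a quasi-likelihood fit of all 9 libraries with a mean per group. Contrasts were each hairpin against shluc and shEZH2#1 against shEZH2#3. Calls needed a Benjamini-Hochberg adjusted p below 0.05 over all tested genes, and the text gives this test's adjusted p-values where no tool is named. Common dispersion was 0.0315 (biological coefficient of variation 0.177). Errors of log2 fold changes are approximate SE, the fold change divided by the square root of the F statistic. The fit was tested on simulated data.

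Alternatives were other scalings, filters and tests (DESeq2 1.42.0, limma-voom with limma 3.58.1), a minimum fold of 1.2, removal of GC and length trends per library (lowess span 0.3), removal of the 2 abundant unnamed genes, a replicate term, and leaving out each library.

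Genes named are, per contrast, the up to 6 members called in each direction with the largest fold changes, the 4 highest and 4 lowest members per kb, the MRPS18 paralogs, and MRPS12, MRPS7, MRPL3, MRPL12 and MRPL58; further called members are named where they hold across alternatives. From each other list, up to 3 called genes with the largest changes were eligible. Members and lists were chosen with earlier results of these data known. Libraries of a group differed from each other beyond counting noise (chi-square per degree of freedom 14.54 to 76.86), so none was a copy.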

Additional observations from a re-analysis of the deposited data

Results flagged for a closer look

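The effect of the 2 hairpins on the same gene differed, by a direct test of shEZH2#1 against shEZH2#3 (edgeR), in 7 mitochondrial ribosomal protein genes, each with a higher level in shEZH2#1. These were 9.21% of the members, where 9.46% of all genes tested were called higher and 15.5% lower. The log2 differences were 0.89 for MRPL27, 0.74 for MRPS9, 0.70 for MRPS10, 0.67 for MRPS22, 0.54 for MRPL12, 0.53 for MRPL22 and 0.49 for MRPS35. In all 7 genes, which this same test selected, the 3 shEZH2#1 libraries lay above the 3 shEZH2#3 libraries. After GC and length correction MRPL27, MRPL12 and MRPS10 were called again and the other 4 were not.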

How the results depend on the processing

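Replicate numbers did not pair libraries: deviations of same-numbered libraries correlated between -0.12 and 0.08. With a replicate block, member calls were 19 with shEZH2#1, 26 with shEZH2#3 and 7 between the hairpins, against 18, 22 and 7 without it. Over all genes the block gave 2208, 5482 and 2938 calls, against 2523, 5861 and 3311. MRPS27 with shEZH2#1 (adjusted p = 0.0575) and MRPS22 between the hairpins (adjusted p = 0.0551) lost their calls with the block. Leaving out 1 library, or shluc replicate 2 together with shEZH2#3 replicate 1, gave 7 to 25 member calls and 1159 to 3063 calls over all genes with shEZH2#1, 17 to 25 and 4251 to 5823 with shEZH2#3, and 2 to 18 and 1956 to 4191 between the hairpins. A minimum fold of 1.2 left 11 members and 1302 genes with shEZH2#1, 15 members and 4293 genes with shEZH2#3, and 3 members and 2068 genes between the hairpins. Between the hairpins, member calls rose to 26 with upper quartile scaling, 13 with no filter, 15 with a stricter filter, 22 with only the groups compared, 24 with GC and length correction (24 with the block too) and 13 when the 2 abundant unnamed genes were dropped; the cause was not tested. Over all genes the calls between the hairpins in the same settings were 3611 (2207 higher and 1404 lower, against 1254 and 2057), 3359, 3282, 3864, 3770, 3548 and 3309, against 3311. With shEZH2#3, calls over all genes fell to 3227 with GC and length correction and 3028 with the block too. The median fold change of the members moved by less than 1 SD of the libraries (0.19) in most settings, and changed sign with shEZH2#1 without shEZH2#1 replicate 1 (-0.01) or shluc replicate 2 (-0.06), and with shEZH2#3 without shluc replicate 3 (0.04).

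Log2 fold changes turned sign as follows. With shEZH2#3, GC and length correction gave -0.56 for MRPL12, -0.08 for MRPL38, -0.25 for MRPL41, -0.24 for MRPS12, -0.02 for MRPS2 and 0.34 for MRPS18C; with the block too, these were -0.56, -0.08, -0.25, -0.24, -0.02 and 0.32. MRPL12 with shEZH2#3 was also at -0.00 under upper quartile scaling, and between -0.05 (without shluc replicate 2, alone or with shEZH2#3 replicate 1) and 0.31 when libraries were left out. MRPL58 with shEZH2#3 ran between -0.29 and 0.20, positive without shEZH2#3 replicate 3 (0.06) or shluc replicate 3 (0.20). With shEZH2#1, MRPS18C ran between -0.04 (without shEZH2#1 replicate 1) and 0.33, with -0.02 without shluc replicate 2 and -0.00 without both libraries named above. MRPS7 with shEZH2#1 was at 0.02 without the 2 abundant unnamed genes, 0.01 and 0.04 without shEZH2#1 replicates 2 and 3, and ran between -0.21 and 0.13 (without shluc replicate 3). Depth limits the low members: the lowest estimated count of a member in a library was 7.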
